A study of Mus musculus with 8 samples.

Results

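The genes described here are the core components of the Hedgehog signaling pathway. They were chosen by gene symbol, as the 9 genes *Ptch1*, *Boc*, *Gas1*, *Smo*, *Sufu*, *Hhip*, *Gli1*, *Gli2* and *Gli3*, and all 9 are among the 18957 genes listed in each count file. Of these, 8 passed the filter on low counts and were tested together with all other genes, 13036 in total, and *Hhip* did not pass. RNA was sequenced from FACS-sorted cardiac cells of 4 wild type (WT) and 4 *Pdgfra-Cre:LmnaF/F* mice, 1 library per mouse, to find the transcripts that differ in fibroblasts lacking *Lmna*, the gene of the nuclear lamina proteins lamin A and C. The *Pdgfra-Cre:LmnaF/F* mice carried a floxed exon 2 of *Lmna* on both alleles and a BAC transgene in which *Pdgfra* drives Cre, and the labels also name this genotype Lmna-KO. The WT mice carried neither, and mice with Cre alone are not among the libraries, so the transgene and the deletion cannot be told apart here. All mice were labelled C57BL/6 (mixed) and were 3 to 4 weeks old, and the sorted cells were PDGFRA-positive and negative for hematopoietic lineage markers, from ventricles digested with collagenase. As a model of fibroblast deletion this is limited by the driver, since other mesenchymal cells use *Pdgfra* and a part of the myocytes can recombine through its early activity.

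Hedgehog ligands (*Shh*, *Ihh* and *Dhh*) bind the receptor Patched, which in their absence holds back Smoothened. Released Smoothened acts in the primary cilium to free the GLI transcription factors from SUFU and from proteolysis to repressors. In the heart, the pathway is known for its part in septation and coronary vessel growth and for signals received by mesenchymal cells around vessels, and *Gli1* is widely used both as a readout of pathway activity and as a marker of perivascular mesenchymal cells.

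None of the 8 tested components passed an adjusted p of 0.05 in the quasi-likelihood test of edgeR with Benjamini-Hochberg adjustment over all tested genes, where 0.407 percent of all genes did. *Gli1* had the largest difference, 3.55-fold lower in the *Pdgfra-Cre:LmnaF/F* than in the WT fibroblasts. *Smo* and *Gli2* were 1.52-fold and 1.55-fold lower, and in these genes every *Pdgfra-Cre:LmnaF/F* library was below every WT library. The other 5 tested components, *Ptch1*, *Boc*, *Gas1*, *Sufu* and *Gli3*, had an interval of the difference that includes 0. At an unadjusted p under 0.05 the edgeR test held 3 of the 8 as lower, *Gli1*, *Smo* and *Gli2*, and none as higher, beside 5.65 percent of all tested genes as lower and 6.24 percent as higher. Groups that do not overlap, with the *Pdgfra-Cre:LmnaF/F* libraries lower, were found in 2 of the 8 components and in 3.97 percent of all tested genes. The median log2 fold change was -0.37 over the 8 components and 0.02 over all tested genes.

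Total counts per library lay between 2080555 and 10741519 in the WT and between 8284882 and 12502949 in the *Pdgfra-Cre:LmnaF/F* mice, and the lowest total was that of WT replicate 2. This library also stood apart by its markers of dividing cells. *Pdgfra-Cre:LmnaF/F* replicate 4 stood apart by its markers of cardiac myocytes and leukocytes, and by *Fabp4* and *Plin4* of the adipocyte list. Their values are given beside the other markers. Values below are CPM, counts divided by library size after scaling with TMM factors, and intervals and floors cover counting error only where they are set by counts. The targeted gene, *Lmna*, had a log2 fold change of -1.72 (adjusted p = 0.00492 in the edgeR test) with no overlap between the groups. The 9 fibroblast markers summed to 47100 to 54400 CPM in the WT and 40600 to 55900 CPM in the *Pdgfra-Cre:LmnaF/F* libraries, and *Pdgfra* itself was at 1750 ± 352 CPM and 2160 ± 434 CPM (SD, n = 4 each). These are bulk samples, in which fewer cells of a type and less RNA per cell cannot be told apart.

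**Figure D1:**
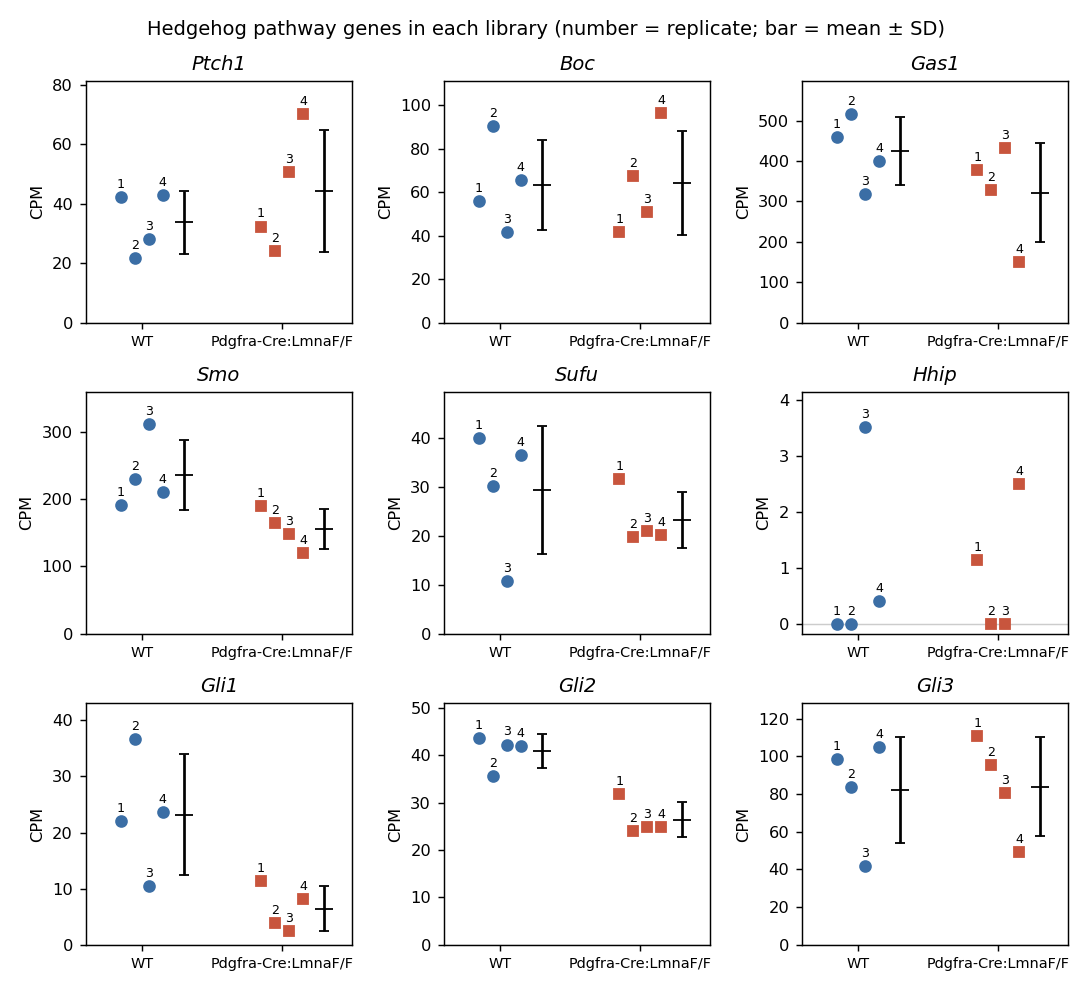
CPM of the 9 Hedgehog components in each of 4 WT (circles) and 4 *Pdgfra-Cre:LmnaF/F* (squares) libraries, with the replicate number at each point and the mean ± SD beside each group. No mean is drawn for *Hhip*. The squares lie below all circles in *Smo* and *Gli2*, and in *Gli1* only WT replicate 3, at 10.5 CPM, is below the highest square, at 11.4 CPM.

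*Ptch1* (chromosome 13, 63508328 to 63573598, minus strand of mm10) encodes the main ligand receptor and is itself a transcriptional target of the pathway. It was at 42.3, 21.6, 28 and 42.9 CPM in WT replicates 1 to 4 and at 32.3, 24.2, 50.7 and 70.1 CPM in *Pdgfra-Cre:LmnaF/F* replicates 1 to 4. The groups overlapped, and *Pdgfra-Cre:LmnaF/F* replicates 3 and 4 were above all WT libraries. The means were 33.7 ± 10.6 and 44.3 ± 20.4 CPM (SD, n = 4 each), and the log2 fold change was 0.38 (95% interval -0.34 to 1.10, adjusted p = 0.742 in the edgeR test). The log2 fold change was 0.065 without *Pdgfra-Cre:LmnaF/F* replicate 4, 0.23 without WT replicate 2, 0.58 without *Pdgfra-Cre:LmnaF/F* replicate 2 and 0.056 in limma-voom.

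*Boc* (chromosome 16, 44485049 to 44558897, minus strand), a coreceptor of the immunoglobulin and fibronectin type III family, was at 56, 90.6, 41.5 and 65.4 CPM in the WT and 41.6, 67.6, 50.9 and 96.4 CPM in the *Pdgfra-Cre:LmnaF/F* libraries. Both groups covered almost the same range, and the log2 fold change was 0.03 (95% interval -0.60 to 0.65, adjusted p = 0.981 in the edgeR test). *Gas1* (chromosome 13, 60174405 to 60177365, minus strand, a single exon) encodes a membrane-anchored coreceptor that promotes ligand binding. It was at 460, 516, 319 and 401 CPM in the WT and 379, 328, 432 and 149 CPM in the *Pdgfra-Cre:LmnaF/F* libraries. Only *Pdgfra-Cre:LmnaF/F* replicate 4 was below the WT range, and the log2 fold change was -0.40 (95% interval -1.0 to 0.21, adjusted p = 0.648 in the edgeR test). Without *Pdgfra-Cre:LmnaF/F* replicate 4 the log2 fold change of *Gas1* was -0.16. The annotated noncoding gene *Gm48488* on the opposite strand shares 19.9% of the *Gas1* exon bases, and the sources used here do not give the strand setting of the read counting, so reads of the pair may not be separated.

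*Smo* (chromosome 6, 29735503 to 29761365, plus strand) encodes Smoothened, the membrane protein that carries the signal into the cell. It was at 191, 230, 311 and 211 CPM in WT replicates 1 to 4 and at 190, 164, 148 and 120 CPM in *Pdgfra-Cre:LmnaF/F* replicates 1 to 4. All WT libraries were above all *Pdgfra-Cre:LmnaF/F* libraries, with WT replicate 1 and *Pdgfra-Cre:LmnaF/F* replicate 1 nearly level. The means were 236 ± 52.3 and 156 ± 29.2 CPM (SD, n = 4 each). The log2 fold change was -0.60 (95% interval -1.06 to -0.14, unadjusted p = 0.0134 and adjusted p = 0.267 in the edgeR test), and it was -0.44 without WT replicate 3, where the unadjusted p was 0.0523.

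*Sufu* (chromosome 19, 46396896 to 46488804, plus strand) encodes the cytoplasmic inhibitor that holds GLI proteins. It was at 40, 30.2, 10.7 and 36.6 CPM in the WT and at 31.7, 19.8, 21 and 20.2 CPM in the *Pdgfra-Cre:LmnaF/F* libraries. WT replicate 3 was the lowest of all 8 libraries and the other 3 WT libraries were above *Pdgfra-Cre:LmnaF/F* replicates 2 to 4, so the groups overlapped (log2 fold change -0.34, 95% interval -1.13 to 0.45, adjusted p = 0.801 in the edgeR test). The log2 fold change of *Sufu* was -0.63 without WT replicate 3 (unadjusted p = 0.043, adjusted p = 0.4 in the edgeR test) and -0.15 and -0.22 without WT replicates 1 and 4, and -0.54 without *Pdgfra-Cre:LmnaF/F* replicate 1. *Hhip* (chromosome 8, 79965851 to 80058006, minus strand), a membrane protein that binds ligands away from the receptor and is a target of the pathway, had 0, 0, 22 and 4 counts in WT replicates 1 to 4 and 11, 0, 0 and 30 counts in *Pdgfra-Cre:LmnaF/F* replicates 1 to 4. It was above the floor of 3 counts in WT replicates 3 and 4 and in *Pdgfra-Cre:LmnaF/F* replicates 1 and 4, so both groups held libraries with and without it. In the libraries without a count, 3 counts would be 0.28 CPM in WT replicate 1, 1.5 CPM in WT replicate 2, 0.312 CPM in *Pdgfra-Cre:LmnaF/F* replicate 2 and 0.344 CPM in *Pdgfra-Cre:LmnaF/F* replicate 3. WT replicate 1, with the most reads of the WT libraries, had none, whereas *Pdgfra-Cre:LmnaF/F* replicate 4, with the most reads of all, had the most counts. In the *Pdgfra-Cre:LmnaF/F* libraries the counts of *Hhip* fell in the order of the totals. A dependence on depth was not tested. *Hhip* was tested without a filter on low counts, in DESeq2, in DESeq2 with a RUVr factor and in 5 of the 8 edgeR fits with a library left out, and was called in none of them.

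The GLI transcription factors bind DNA through zinc fingers that are alike between the 3 proteins. *Gli1* has no repressor form and is induced by the pathway, *Gli2* supplies most of the activator, and *Gli3* supplies most of the repressor. The stretch of 150 coding bases, the length of a read, in which *Gli1* and *Gli2* are most alike lies in the zinc finger part and spans a junction of coding exons in each gene. It is shown with the aligned stretch of *Gli3* because reads of such stretches are where counts of the 3 genes could be mixed. Capitals mark the 40 positions at which the 3 genes are not all the same, and the sequences are read from GRCm38 on the strand of each gene, from *Gli1* (minus strand, chr10:127335963-127336035 and chr10:127334287-127334363), *Gli2* (minus strand, chr1:118845917-118845989 and chr1:118844439-118844515) and *Gli3* (plus strand, chr13:15713576-15713648 and chr13:15714950-15715026):
Gli1: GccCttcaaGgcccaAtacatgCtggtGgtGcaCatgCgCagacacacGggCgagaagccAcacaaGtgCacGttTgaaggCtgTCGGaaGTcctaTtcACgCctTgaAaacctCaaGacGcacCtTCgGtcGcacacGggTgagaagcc
Gli2: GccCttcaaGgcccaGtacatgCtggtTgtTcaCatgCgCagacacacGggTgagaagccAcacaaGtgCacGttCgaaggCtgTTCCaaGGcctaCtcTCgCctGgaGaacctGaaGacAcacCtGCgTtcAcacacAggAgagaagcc
Gli3: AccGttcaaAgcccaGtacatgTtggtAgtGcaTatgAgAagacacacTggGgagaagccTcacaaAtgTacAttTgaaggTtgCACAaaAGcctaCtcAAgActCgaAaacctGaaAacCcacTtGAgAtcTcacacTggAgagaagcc

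*Gli1* and *Gli2* differ at 20 of these 150 bases, *Gli1* and *Gli3* at 36, and *Gli2* and *Gli3* at 33. Over their whole coding sequences the longest run of bases shared exactly was 23 between *Gli1* and *Gli2*, 14 between *Gli1* and *Gli3* and 25 between *Gli2* and *Gli3*. Each run is shorter than a read. Between *Boc* and its paralog *Cdon* it was 31.

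*Gli1* (ENSMUSG00000025407.7, chromosome 10, 127329882 to 127341974, minus strand) had 236, 73, 66 and 228 counts in WT replicates 1 to 4 and 110, 37, 22 and 97 counts in *Pdgfra-Cre:LmnaF/F* replicates 1 to 4. Scaled for depth, it was at 22, 36.7, 10.5 and 23.6 CPM in the WT and at 11.4, 3.86, 2.53 and 8.08 CPM in the *Pdgfra-Cre:LmnaF/F* libraries. WT replicate 2, the library with the fewest reads, was the highest, and the groups overlapped only through WT replicate 3 and *Pdgfra-Cre:LmnaF/F* replicate 1. The means were 23.2 ± 10.7 and 6.46 ± 4.04 CPM (SD, n = 4 each). The 95% interval of the log2 fold change ran from -2.95 to -0.71 (unadjusted p = 0.00339, rank 264 among all tested genes), and the adjusted p was 0.167 in the edgeR test. *Gli1* did pass the threshold in DESeq2, with an adjusted p of 0.037 where 2.15 percent of genes passed. It passed with DESeq2 and a RUVr factor for unwanted variation (adjusted p = 0.0202), where 534 of 18957 genes did. It also passed with edgeR without a filter on low counts (adjusted p = 0.042), where 274 of 18957 genes did. In each of these settings *Gli1* was the only one of the 9. In the other 6 settings its adjusted p lay between 0.123 and 0.171. Libraries were left out in the edgeR test with the filter alone, where the adjusted p was between 0.097 and 0.424. Without WT replicate 2 the log2 fold change was -1.54, and without *Pdgfra-Cre:LmnaF/F* replicate 1 it was -2.25. The exons of *Gli1* share 62 bases (1.24%) with *Arhgap9* and 265 bases (5.31%) with the antisense gene *Gm47200*, both on the opposite strand.

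*Gli2* (chromosome 1, 118834132 to 119053619, minus strand) was at 43.7, 35.7, 42.3 and 41.9 CPM in the WT and at 31.9, 24.1, 24.9 and 24.8 CPM in the *Pdgfra-Cre:LmnaF/F* libraries. The groups did not overlap, and within each group 3 of the 4 libraries lay close together. The means were 40.9 ± 3.55 and 26.4 ± 3.65 CPM (SD, n = 4 each), and the log2 fold change was -0.64 (95% interval -1.14 to -0.13, unadjusted p = 0.0177 and adjusted p = 0.302 in the edgeR test). Without WT replicate 1 its unadjusted p was 0.05 in the edgeR test. *Gli3* (chromosome 13, 15463235 to 15730026, plus strand) was at 98.4, 83.5, 41.9 and 105 CPM in the WT and at 111, 95.3, 80.7 and 49 CPM in the *Pdgfra-Cre:LmnaF/F* libraries. One library in each group, WT replicate 3 and *Pdgfra-Cre:LmnaF/F* replicate 4, was lower than the rest, and the groups overlapped (log2 fold change 0.03, 95% interval -0.61 to 0.67, adjusted p = 0.98 in the edgeR test).

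**Figure D2:**
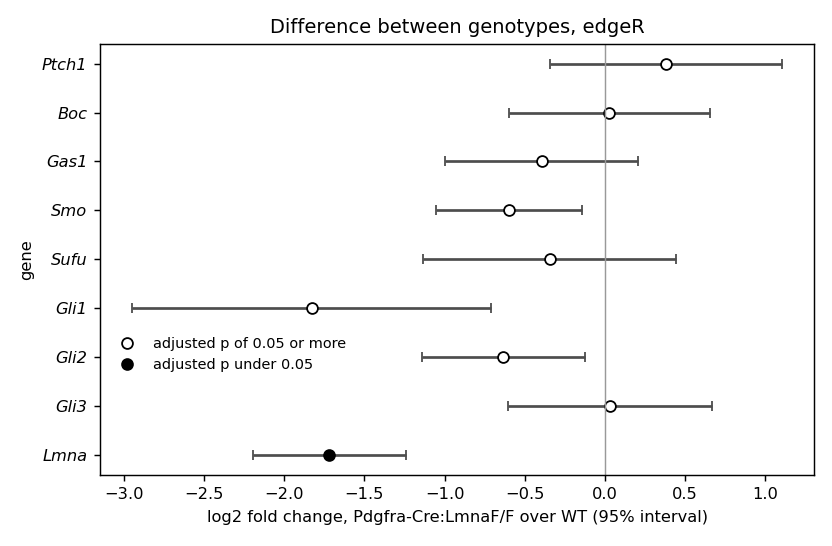
Log2 fold change of the 8 tested Hedgehog components and of *Lmna*, *Pdgfra-Cre:LmnaF/F* over WT, from edgeR, with 95% intervals as bars. The intervals of *Gli1*, *Gli2* and *Smo* lie below 0, those of the other 5 components include 0, and only *Lmna* (filled) passed the adjusted p of 0.05.

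Levels can be compared between genes only per length, so CPM were divided by the annotated exon length of each gene. In the WT, *Gas1* was the highest at 143 CPM per kb, followed by *Smo* at 41.9, *Boc* at 14.2, *Gli3* at 8.57, *Gli2* at 5.96, *Gli1* at 4.65, *Sufu* at 3.82, *Ptch1* at 2.38 and *Hhip* at 0.108 CPM per kb. *Gas1* and *Smo* stood apart from the gene that follows each, as did *Ptch1* from *Hhip*, and all other neighbours in this order overlapped in their ranges over the 4 libraries. Among 18918 genes with an annotated length, *Gas1* was at percentile 98.7 of the WT level and *Smo* at 94.9, while the receptor *Ptch1* was at 50.7 and *Hhip* at 17.2. In the *Pdgfra-Cre:LmnaF/F* fibroblasts the order began with *Gas1* at 109, *Smo* at 27.7, *Boc* at 14.4, *Gli3* at 8.76 and *Gli2* at 3.85 CPM per kb, and *Ptch1* at 3.12 and *Sufu* at 3.01 CPM per kb came before *Gli1* at 1.29 CPM per kb. The range of *Gli1* in the *Pdgfra-Cre:LmnaF/F* libraries, 0.507 to 2.28 CPM per kb, did not reach that of *Sufu*, 2.58 to 4.12 CPM per kb, whereas in the WT these genes overlapped. With the longest transcript in place of all exons, *Sufu* moved up to rank 5 in both genotypes, and in the *Pdgfra-Cre:LmnaF/F* fibroblasts *Ptch1*, at 4.27 CPM per kb, came before *Gli2*, at 3.98 CPM per kb.

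Within the summed level per length of the GLI genes, *Gli1* held 21%, 34.6%, 16.7% and 21.7% in WT replicates 1 to 4 and 12.3%, 5.43%, 4.04% and 15.6% in *Pdgfra-Cre:LmnaF/F* replicates 1 to 4. The groups did not overlap in this share, with means of 23.5 ± 7.71% and 9.36 ± 5.54% (SD, n = 4 each). The share of *Gli3* was 48.8%, 41%, 34.5% and 50.2% in the WT and 62.6%, 69.9%, 67.1% and 49.4% in the *Pdgfra-Cre:LmnaF/F* libraries, so that *Pdgfra-Cre:LmnaF/F* replicate 4 was inside the WT range. *Gli2* held 32.9 ± 10.9% and 28.4 ± 4.77% (SD, n = 4 each). These shares describe transcripts, and the processing of GLI proteins to activators and repressors was not measured.

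**Figure D3:**
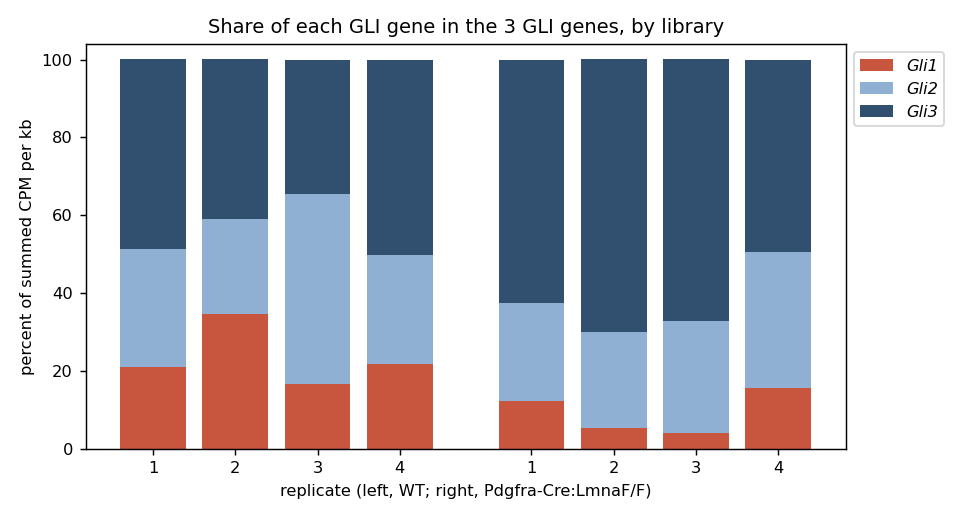
Share of *Gli1*, *Gli2* and *Gli3* in their summed CPM per kb of exon, as stacked percentages for each of 4 WT (left) and 4 *Pdgfra-Cre:LmnaF/F* (right) libraries. The *Gli1* share is 16.7% or more in every WT library and 15.6% or less in every *Pdgfra-Cre:LmnaF/F* library.

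The tested genes whose profile over the 8 libraries was most like that of a component were found by the root mean square difference of log2 CPM, centered for each gene. For *Gli1* they were *Hunk* (difference 0.377), a kinase, *Fras1* (0.422), a basement membrane protein, and *Adgrd1* (0.453), an adhesion G protein-coupled receptor. *Hunk* had a log2 fold change of -1.79 (adjusted p = 0.124 in the edgeR test). With a prior count of 0.5 in place of 2, *Smco4* took a place in the first 3 and *Fras1* lost it. *Gli2* was nearest to *Gorasp1* (0.0742), a Golgi protein, *Galnt17* (0.105) and *Trappc1* (0.107), and *Smo* to *Tgoln1* (0.101), a trans-Golgi protein, *Mad1l1* (0.111) and *Slc39a9* (0.133). *Gli1*, *Gli2* and *Smo* were not among the 3 nearest genes of each other.

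Ligand genes were hardly seen. *Shh* and *Ihh* are not among the listed genes, and *Dhh* had 0, 0, 8 and 1 counts in the WT and 6, 0, 0 and 15 counts in the *Pdgfra-Cre:LmnaF/F* libraries. *Dhh* was above the floor of 3 counts in WT replicate 3 and *Pdgfra-Cre:LmnaF/F* replicates 1 and 4, which are 3 of the 4 libraries in which *Hhip* was above it. Of the genes for ligands and their release, 6 of 9 were tested, 2 with a lower and 4 with a higher estimate, and their median log2 fold change was 0.23. None had an unadjusted p under 0.05 in the edgeR test, beside 5.65 percent (lower) and 6.24 percent (higher) of all tested genes. *Disp1*, which encodes the transporter that releases ligands, had the lowest p among them (log2 fold change -0.50, adjusted p = 0.583 in the edgeR test). Its log2 fold change was -0.26 without *Pdgfra-Cre:LmnaF/F* replicate 4 and -0.61 in limma-voom, where the unadjusted p was 0.0402.

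Of the other receptors and coreceptors, 4 of 5 were tested, 3 with a lower estimate, and 1 of them, *Lrp2*, had an unadjusted p under 0.05 in the lower direction, beside 5.65 percent of all tested genes (3.97 percent with no overlap). *Lrp2*, the megalin gene, was at 6.54, 17.6, 8.63 and 3.62 CPM in the WT and 3, 2.61, 0.921 and 0.25 CPM in the *Pdgfra-Cre:LmnaF/F* libraries, without overlap, at levels near the floor in the last (log2 fold change -2.40, adjusted p = 0.308 in the edgeR test). Without WT replicate 2 it was -1.88 and the unadjusted p was 0.106 in the edgeR test, and the unadjusted p was 0.0791 in limma-voom. *Cdon*, the paralog of *Boc*, was at 132 to 244 CPM in the WT and 83.4 to 362 CPM in the *Pdgfra-Cre:LmnaF/F* libraries (log2 fold change 0.28, adjusted p = 0.844 in the edgeR test).

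Of 26 intracellular regulators, 15 had a lower and 11 a higher estimate, 2 had an unadjusted p under 0.05, both lower, beside 5.65 percent of all tested genes in that direction, and the median log2 fold change was -0.16. *Prkaca*, a catalytic subunit of protein kinase A, which phosphorylates GLI proteins for repressor formation, was at 99.4, 119, 86.8 and 117 CPM in the WT and at 73.1, 61.1, 38.9 and 56 CPM in the *Pdgfra-Cre:LmnaF/F* libraries. The groups did not overlap, and the log2 fold change was -0.88 (95% interval -1.36 to -0.40, adjusted p = 0.125 in the edgeR test). Of the 26 regulators, 2 had no overlap with lower and 1 with higher values, beside 3.97 percent and 4.06 percent of all tested genes. For *Prkaca* the test also depended on the setting. Its adjusted p was 0.027 in DESeq2, 0.0375 in edgeR without a filter and 0.0208 in DESeq2 with a RUVr factor. In the other 6 settings it was 0.0505 to 0.144, and with libraries left out of the edgeR test it was 0.0854 to 0.307. *Arrb1*, a beta-arrestin, was the other regulator, at 230 to 285 CPM in the WT and 80.2 to 208 CPM in the *Pdgfra-Cre:LmnaF/F* libraries (log2 fold change -0.58, unadjusted p = 0.0413 and adjusted p = 0.399 in the edgeR test). Without *Pdgfra-Cre:LmnaF/F* replicate 4 it was -0.35 and the unadjusted p was 0.076 in the edgeR test, and the unadjusted p was also above 0.05 without WT replicates 1, 3 or 4 or *Pdgfra-Cre:LmnaF/F* replicate 2.

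All 41 genes of the primary cilium were tested, 19 with a lower and 22 with a higher estimate and a median log2 fold change of 0.11. At an unadjusted p under 0.05 there were 2 lower and 1 higher of the 41, beside 5.65 percent and 6.24 percent of all tested genes. *Arl13b*, a small GTPase of the ciliary membrane, was at 17.5, 21.6, 18.5 and 25.1 CPM in the WT and at 32.6, 29.1, 60.6 and 33.2 CPM in the *Pdgfra-Cre:LmnaF/F* libraries. Every *Pdgfra-Cre:LmnaF/F* library was above every WT library, as in 4.06 percent of all tested genes (log2 fold change 0.91, adjusted p = 0.222 in the edgeR test). *Ift122* and *Ttc21b*, both of the complex for retrograde ciliary transport, had log2 fold changes of -0.67 and -0.74 (adjusted p of 0.324 and 0.359 in the edgeR test). For *Ift122* the unadjusted p of the edgeR test was 0.0513 to 0.0685 without WT replicate 3 or 4 or *Pdgfra-Cre:LmnaF/F* replicate 1 or 4. For *Ttc21b* it was 0.0564 to 0.107 without WT replicate 3 or *Pdgfra-Cre:LmnaF/F* replicate 1 or 4, and 0.0613 in limma-voom.

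Besides *Gli1*, *Ptch1* and *Hhip*, 18 genes reported as targets of the pathway were listed and 15 tested, 8 with a lower and 7 with a higher estimate, with a median log2 fold change of -0.12. At an unadjusted p under 0.05 there were 1 lower and 1 higher of the 15, beside 5.65 percent and 6.24 percent of all tested genes. *Bcl2*, an inhibitor of apoptosis, was at 33.7, 52.8, 38.5 and 45.9 CPM in the WT and at 67.4, 54.3, 67 and 84.8 CPM in the *Pdgfra-Cre:LmnaF/F* libraries. The groups did not overlap, as in 4.06 percent of all tested genes in that direction, with a log2 fold change of 0.69 (adjusted p = 0.233 in the edgeR test). *Ccnd1*, cyclin D1, was at 14.1, 188, 12.5 and 17.1 CPM in the WT and at 17.1, 24.4, 10.4 and 8.92 CPM in the *Pdgfra-Cre:LmnaF/F* libraries. WT replicate 2 alone was high, and the log2 fold change was -1.88 with it (adjusted p = 0.332 in the edgeR test, and 0.027 without the filter on low counts) and 0.056 without it. In limma-voom it was -0.61, and the unadjusted p of the edgeR test was 0.065 and 0.0517 without *Pdgfra-Cre:LmnaF/F* replicates 3 and 4.

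**Figure D4:**
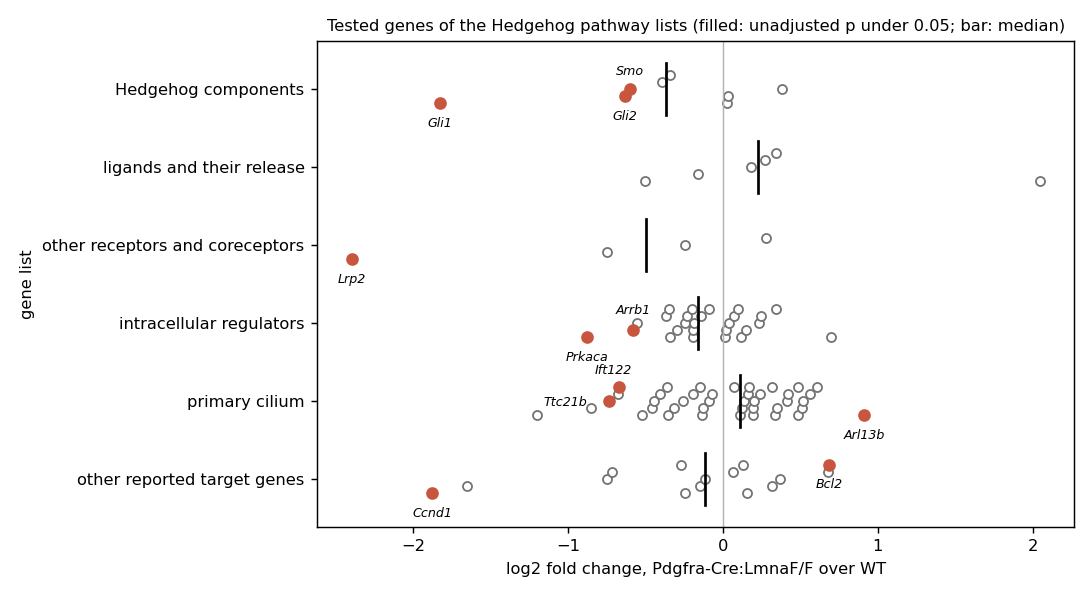
Log2 fold change, *Pdgfra-Cre:LmnaF/F* over WT, of every tested gene of the Hedgehog components and of the 5 other lists of pathway genes, with 1 point per gene and a bar at the median of each list. Filled points, named in the plot, have an unadjusted p under 0.05, and no gene of these lists passed an adjusted p of 0.05 in this edgeR test.

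GLI proteins bind the consensus GACCACCCA. In RefSeq promoters of GRCm38.p6, taken as 250 bases before to 50 after a start, this sequence was found on either strand in 0.253% of 32851 windows, and with any base at the fifth position (GACCNCCCA) in 0.977%. Of the 9 components, 7 had a window in this table, and neither form was found in any of the 7. *Gli1* and *Boc* had no window. Of the genes of the other pathway lists, 71 had a window, and none held either form.

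Markers of other cells were read beside these results, as summed CPM per library. Adventitial fibroblast markers (7 genes) summed to 6050 to 8160 CPM in the WT and 2800 to 5510 CPM in the *Pdgfra-Cre:LmnaF/F* libraries, so that the groups did not overlap. Of these genes, 7 of 7 had a lower estimate, as did 6279 of all 13036 tested genes. The groups did not overlap in *Pi16*, *Ly6a* and *Cd248*, beside 3.97 percent of all tested genes. They overlapped in *Dpp4*, *Cd34*, *Dpt* and *Clec3b*, with log2 fold changes of -0.53 to -0.34. *Cd248* passed the test (log2 fold change -1.84, adjusted p = 0.0255 in edgeR), as did 1 of the 9 general fibroblast markers, *Thy1*. This list was lower together with *Gli1*, *Gli2* and *Smo*, and its part in their difference was not tested. Markers of dividing cells summed to 14.6, 271, 102 and 20.1 CPM in WT replicates 1 to 4 and to 8.24 to 21 CPM in the *Pdgfra-Cre:LmnaF/F* libraries, and WT replicate 2, the highest, was also the highest in *Gli1* and *Ccnd1*, whereas WT replicate 3, the next in these markers, was the lowest WT library in both genes. Of the dividing cell markers tested, 6 of 7 had a lower estimate in the *Pdgfra-Cre:LmnaF/F* libraries. Cardiac myocyte markers summed to 281 to 666 CPM in the WT and 220 to 414 CPM in *Pdgfra-Cre:LmnaF/F* replicates 1 to 3, and to 3290 CPM in *Pdgfra-Cre:LmnaF/F* replicate 4. Without *Pdgfra-Cre:LmnaF/F* replicate 4 the log2 fold change was -1.95 for *Gli1*, -0.61 for *Gli2* and -0.50 for *Smo*, and without WT replicate 2 it was -1.54, -0.70 and -0.61. Endothelial markers summed to 562 to 784 CPM in the WT and 447 to 577 CPM in the *Pdgfra-Cre:LmnaF/F* libraries, with a lower estimate in 7 of 8. The ranges in the WT and *Pdgfra-Cre:LmnaF/F* libraries were 237 to 406 and 207 to 396 CPM for pericytes and smooth muscle cells, 46.3 to 212 and 58.7 to 439 CPM for leukocytes, and 46.3 to 72.7 and 49.6 to 77.8 CPM for Schwann cells. They were 13.9 to 46.3 and 6.67 to 19.7 CPM for mesothelial cells, with a lower estimate in 6 of 6 tested, and 71.2 to 149 and 61.1 to 270 CPM for adipocytes, whose marker *Adipoq* is not listed. *Pdgfra-Cre:LmnaF/F* replicate 4 was the highest library for leukocytes, at 439 CPM against 58.7 to 115 CPM in the other 3 of its group, and for adipocytes, at 270 CPM against 61.1 to 162 CPM. Its adipocyte sum came mostly from *Fabp4* (2520 counts) and *Plin4* (679 counts). *Plin1* had 0, *Cfd* 1, *Cidec* 10, *Lep* 13 and *Pck1* 21 counts in this library. No marker listed was at 0 in all libraries, and the part of these cells in the values above was not tested.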

How the data were processed

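Counts of 4 WT and 4 *Pdgfra-Cre:LmnaF/F* libraries, 1 mouse each, were analysed, with groups and replicate numbers from the sample titles, and p-values measure the spread between these mice. The authors prepared strand-specific libraries depleted of ribosomal RNA, sequenced paired ends of 150 bases, aligned them to mm10 with HISAT2, counted reads on GENCODE genes with featureCounts and deposited whole-number counts per gene symbol. The submitters' processing notes also name FastQC and DESeq2. The methods name RUV normalization as well, and the deposited whole-number counts were taken to be without it, which was not tested. The lowest total of a listed gene was 4 counts over the 8 libraries.

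Counts were scaled with TMM factors and filtered with filterByExpr, and WT and *Pdgfra-Cre:LmnaF/F* libraries were set against each other in edgeR 4.0.16 (R 4.3.3) with its quasi-likelihood F-test, no covariate, and Benjamini-Hochberg adjusted p. The alternatives used DESeq2 1.42.0, limma 3.58.1 (voom with sample weights), upper-quartile or RLE factors, a filter of 10 counts per library or none, 1 RUVr factor, a replicate block, and leaving out each library. On simulated counts, the edgeR test recovered 15 of 193 genes changed 2-fold and 130 of 185 genes changed 4-fold, with 1 and 7 false calls. Most 2-fold changes were thus missed, and the differences of *Smo* and *Gli2* are smaller than 2-fold. Sequences and figures were handled in Python 3.11.15. Coordinates and lengths are from GENCODE M21 (GRCm38), in which 18918 symbols matched. Marker lists were read as summed CPM with a floor of 3 counts for single genes, and log2 CPM for similar profiles had a prior count of 2.

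The named genes are the 9 components, *Lmna*, the ligand genes, in each pathway list every gene with an unadjusted p under 0.05 and the gene with the lowest p, and the 3 nearest profiles of components with the largest differences. *Cdon* and the single marker genes were chosen after their values were seen. One item is not reported here. The components and all lists were chosen with earlier results of these data known.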

Additional observations from a re-analysis of the deposited data

Results flagged for a closer look

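The log2 CPM (prior count 2) of the components and the other named genes were examined within each group of 4 libraries for a single library far from the other 3, by Dixon's quotient of gap to range and its 95% critical value. Of 38 groups, 4 were marked, and chance marks about 1 in 20. Quotients are on the log2 scale and the values beside them in CPM. *Gli2* was higher in *Pdgfra-Cre:LmnaF/F* replicate 1, at 31.9 CPM, than in the other 3, at 24.1 to 24.9 CPM (quotient 0.886). The same library was the highest for *Sufu*, at 31.7 CPM against 19.8 to 21 CPM (quotient 0.881). It was also the highest *Pdgfra-Cre:LmnaF/F* library for *Gli1*, *Smo* and *Gli3*, but the lowest for *Boc* and between the others for *Gas1* and *Ptch1*. *Arrb1* was lower in *Pdgfra-Cre:LmnaF/F* replicate 4, at 80.2 CPM, than in the other 3, at 183 to 208 CPM (quotient 0.867). This is the library with the highest sums of cardiac myocyte, leukocyte and adipocyte markers, the last mostly from *Fabp4* and *Plin4*. *Ccnd1* was at 188 CPM in WT replicate 2 and at 12.5 to 17.1 CPM in the other WT libraries (quotient 0.885), and this is the library with the highest sum of markers of dividing cells. The part of these cells in either value was not tested. On CPM in place of log2 CPM, a scale added after the data were seen, the quotient of *Arrb1* was 0.806, below the critical value, and 5 groups were marked: *Gli2* (0.9), *Sufu* (0.904), *Ccnd1* (0.974), *Arl13b* in *Pdgfra-Cre:LmnaF/F* replicate 3 (0.868) and *Hhip* in WT replicate 3 (0.882).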

How the results depend on the processing

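The count of Hedgehog components past an adjusted p of 0.05 was 0 of 8 with edgeR. It was 1 of 9, *Gli1*, in DESeq2, in edgeR without a filter and in DESeq2 with a RUVr factor. In the edgeR test with the filter, the fit in which libraries were left out, it was 0 without any 1 of the 8. The count of DEGs over all genes was 53 of 13036 tested with edgeR, 309 of 14339 in DESeq2 and 126 of 13036 in limma-voom. The count was 274 of 18957 without a filter, 83 of 13036 in edgeR with a RUVr factor and 534 of 18957 in DESeq2 with a RUVr factor. It was between 13 (without WT replicate 4) and 76 (without *Pdgfra-Cre:LmnaF/F* replicate 4) with each library left out. It was 24 without WT replicate 1, 24 without WT replicate 2, 26 without *Pdgfra-Cre:LmnaF/F* replicate 2 and 17 without *Pdgfra-Cre:LmnaF/F* replicate 3. The log2 fold change stayed below 0 in all settings for *Gli1* (-2.25 to -1.54), *Gli2* (-0.74 to -0.60) and *Smo* (-0.71 to -0.44), and the sign of the estimates near 0 turned in some. For *Gli3* it was -0.11 in limma-voom and -0.19 to 0.22 with 1 library left out, of which -0.19 without WT replicate 3 and -0.14 and -0.04 without *Pdgfra-Cre:LmnaF/F* replicates 1 and 2. For *Boc* it was -0.17 in limma-voom and -0.24 to 0.23 with 1 library left out, of which -0.02 and -0.13 without WT replicates 1 and 3, and -0.00 and -0.24 without *Pdgfra-Cre:LmnaF/F* replicates 2 and 4. *Ccnd1* ranged from -2.22 to 0.056, the latter without WT replicate 2.

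The replicate numbers are shared by the genotypes, but pairing was not used because the sources do not say that they pair mice. Deviations of libraries with the same number had correlations between -0.0298 and 0.0396. With the replicate block there were 36 DEGs and 0 Hedgehog components past the threshold, and 1 of the 4 WT libraries correlated best with its own number. With 4 libraries a group, the intervals of *Ptch1*, *Sufu* and *Gas1* reach differences of 1.1, -1.13 and -1.0 on the log2 scale, and changes within them cannot be told from none.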
